A study of Saccharomyces cerevisiae with 16 samples.

Results

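Diploid yeast cells lacking *IME2* (*ime2Δ*) at 6 h of sporulation were compared with wild-type (WT) cells at 4 h, to ask which part of the transcript levels held by WT cells at 4 h was also reached without *IME2* and which part was not. The comparison used 4 of the 16 arrays in the series, 2 from *ime2Δ* cells at 6 h and 2 from WT cells at 4 h, taken by the genotype, time and replicate that their labels give. It covered 6254 genes, every gene on the array but *IME2* and *TRP1*, because these differ between the strains by construction. The full series followed both strains at 0, 2, 4 and 6 h after transfer to sporulation medium, with 2 arrays for each strain and time.

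The WT strain was DSY1089 and the mutant strain YGB221, in which both copies of *IME2* were replaced by *TRP1* (*ime2Δ::TRP1*). Both were MATa/α diploids congenic with SK1, a strain background that sporulates quickly and evenly, and both carried *ho::LYS2*, *lys2* and *ura3* alleles, *hisG* insertions in *leu2* and *trp1*, and mutant *arg4* and *his4* alleles. Each genotype was thus represented by a single strain. Cells were grown in rich glucose medium, then in acetate medium, and were transferred to sporulation medium at 0 h. The 2 replicates were biological replicates. Aliquots were drawn over time, so that arrays of one strain and replicate may come from one culture, for which the fit had no term, and the p-values measure only the spread between these arrays.

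In budding yeast, starvation of MATa/α cells induces Ime1, which turns on the early meiotic genes for premeiotic DNA replication, recombination and chromosome pairing. Ime2 is a meiosis-specific protein kinase, itself an early gene product, that promotes premeiotic replication and the later induction of Ndt80. Ndt80 is the transcription factor that turns on the middle genes, which encode the machinery of the meiotic divisions and of spore formation. SBF and MBF are the factors that drive G1/S transcription in the mitotic cycle.

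Deletion of *IME2* was visible in every library. The *IME2* log2 level, which is the log2 processed signal minus the median of its array, was 4.72 and 4.90 on the WT 4 h arrays and -11.99 and -11.43 on the *ime2Δ* 6 h arrays, and none of the 8 *ime2Δ* arrays had an *IME2* signal well above background. *TRP1* read -0.76 and -0.46 in WT cells at 4 h and 0.90 and 0.49 in *ime2Δ* cells at 6 h. Each array had 5939 to 6149 genes well above background, and the median signal of an array ranged from 7582.1 to 14906.0. Replicate number and slide were the same thing, and each slide held all 8 groups. On both slides the *ime2Δ* arrays sat in one column and the WT arrays in the other, so that strain and column cannot be told apart, nor can these groups and their slide rows. Strain and time both differed between the groups compared. As these are bulk RNA samples, fewer cells of a type and less RNA per cell also cannot be told apart.

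Most genes differed little between *ime2Δ* cells at 6 h and WT cells at 4 h, while a smaller set was far lower in the mutant. Of the 6254 genes, 1515 (24.2%) differed at an adjusted p under 0.05 (limma, Benjamini-Hochberg over all genes), with 632 (10.1%) higher and 883 (14.1%) lower in *ime2Δ* cells at 6 h. Log2 differences are given as *ime2Δ* 6 h minus WT 4 h, with the standard error (SE) of the fit and 2 arrays per group. The median size of a called log2 difference was 1.01, and the median standard error over all genes was 0.22. At 2-fold or more, 281 called genes (4.49%) were higher and 485 (7.76%) lower. At 8-fold or more the count was 2 higher (0.032%) against 104 lower (1.66%), and the differences ran from -10.68 to 3.18 on the log2 scale. The split of the calls moved with the scaling, since quantile normalization gave 964 higher and 831 lower. A fit that treated the replicate as a block called 1888 genes.

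Failing the test does not show that a gene was at the same level, so the 95% interval of each difference was set against a 2-fold limit. It lay within 2-fold for 3812 genes (61%), of which 3668 (58.7%) were not called and 144 (2.3%) were. Another 1071 genes (17.1%) were neither called nor bounded within 2-fold, and their place was not settled by 2 arrays per group. At a 1.5-fold limit only 1212 genes were bounded. Both *ime2Δ* arrays lay above both WT arrays for 1771 genes (28.3%) and below them for 2016 genes (32.2%).

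**Figure D1:**
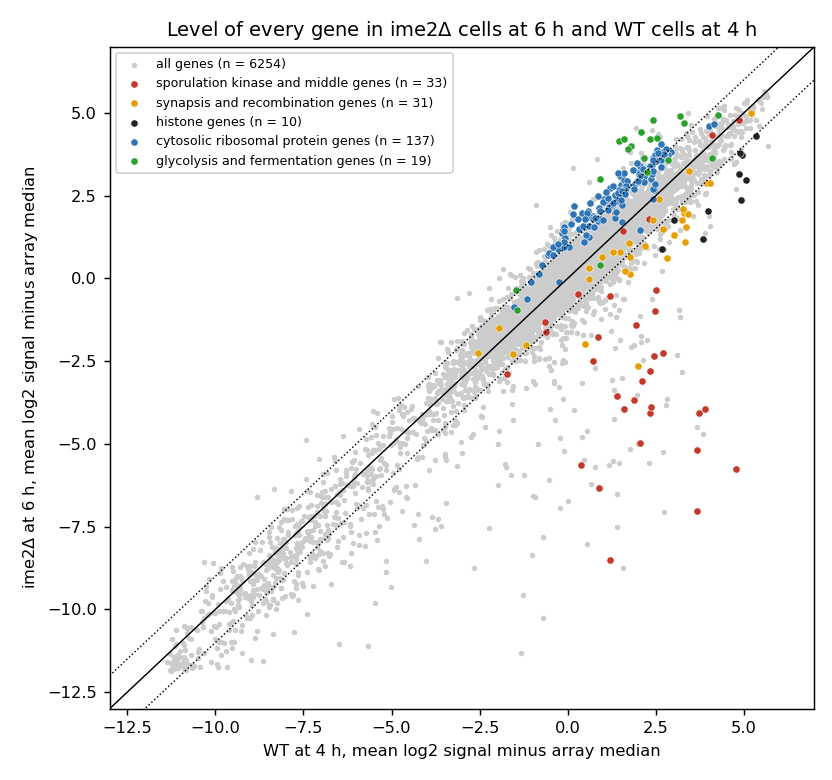
Mean log2 level (processed signal minus the array median) of each gene in WT cells at 4 h, on the x axis, and in *ime2Δ* cells at 6 h, on the y axis, each over 2 arrays, with lines at a 2-fold difference and gene groups in colour. Most genes lie along the diagonal, the middle genes fall far below it, and the ribosomal protein and glycolysis genes lie above it.

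The WT 4 h state was then described by the change from 0 h. In WT cells 3906 genes (62.5%) changed between 0 and 4 h, 1919 higher (30.7%) and 1987 lower (31.8%). In *ime2Δ* cells 3419 genes (54.7%) changed between 0 and 6 h, 1535 higher (24.5%) and 1884 lower (30.1%). These tests share no array and could be crossed. Of the 1919 genes that rose in WT cells, 1218 (63.5%) also rose in *ime2Δ* cells, with a median log2 change of 1.35 in WT and 1.15 in *ime2Δ*. A further 636 (33.1%) did not pass in the mutant, with medians of 0.92 and 0.22, and 65 (3.39%) fell. Of the 1987 genes that fell in WT cells, 1415 (71.2%) also fell in *ime2Δ* cells, with medians of -1.50 and -1.19, 544 (27.4%) did not pass, and 28 (1.41%) rose. Among the 2348 genes without a call in WT cells, 1655 (70.5%) had none in *ime2Δ* cells. A gene can pass the threshold in one strain and just miss it in the other, so a gene called in one strain alone is not shown to differ between them. Under scaling to the 75th percentile the median change of all genes moved up by 0.21 in WT and 0.27 in *ime2Δ* cells, and the share of higher calls among the changes of *ime2Δ* cells went from 44.9 to 62.1%.

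The difference between these changes was tested directly. For 848 genes (13.6%) the 0 to 6 h change of *ime2Δ* cells differed from the 0 to 4 h change of WT cells, 322 (5.15%) with a more positive and 526 (8.41%) with a more negative change in the mutant. The count was 457 without *ime2Δ* 0 h replicate 1, 543 without WT 0 h replicate 1 and 510 without WT 0 h replicate 2.

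**Figure D2:**
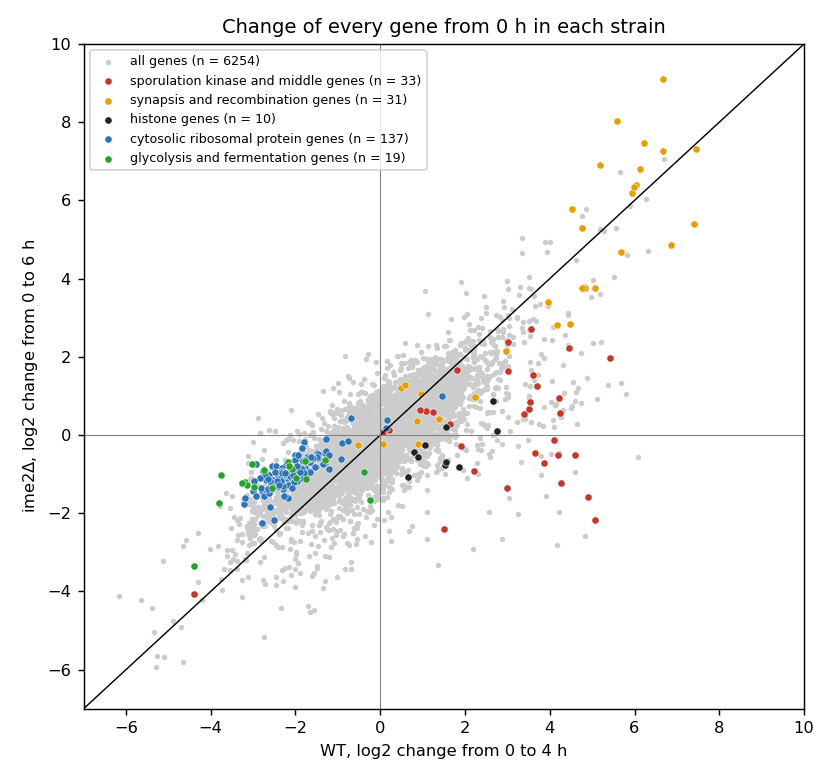
Log2 change of each gene from 0 to 4 h in WT cells, on the x axis, against its log2 change from 0 to 6 h in *ime2Δ* cells, on the y axis, with gene groups in colour. Many early genes rose in both strains (*DMC1* by 4.53 in WT and 5.79 in *ime2Δ* cells), whereas many middle genes rose in WT cells and not in *ime2Δ* cells (*SMK1*, 4.90 and -1.58).

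To keep the choice of genes apart from their measurement, genes that moved by at least 2-fold from 0 to 4 h in one WT replicate were read in the other replicate. Genes chosen as risen in replicate 1 (1223) had, in replicate 2, a median log2 change of 1.58 in WT and 1.03 in *ime2Δ* cells, and those chosen in replicate 2 (1219) had 1.52 and 1.02 in replicate 1. In *ime2Δ* cells at 6 h, 72.4% and 70.1% of these genes were within 2-fold of the WT 4 h level in the replicate read, and 26.9% and 27.9% were short of it by more. Genes chosen as fallen (1325 and 1346) changed by a median of -1.73 and -1.54 in WT and -1.14 and -1.17 in *ime2Δ* cells, and 73.1% and 83.4% of them were within 2-fold. Over all genes the corresponding shares were 85.4% and 84.7%. In both replicates the median change was thus in the same direction without *IME2*, and smaller. The genes were chosen by the change in WT cells alone, and none were chosen by the change in *ime2Δ* cells. A smaller median in the other strain, and a smaller share within 2-fold than over all genes, can follow from that choice. The sizes of the responses of the strains are therefore not compared by these values.

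Over all genes, the *ime2Δ* 6 h arrays stood nearer to WT cells at 2 h than to WT cells at 4 h. The median absolute log2 difference between single arrays was 0.365 to 0.422 to WT at 4 h, 0.277 to 0.378 to WT at 2 h, 0.743 to 0.899 to WT at 6 h and 0.630 to 0.690 to WT at 0 h. It was 0.163 to 0.274 to *ime2Δ* at 4 h. Between replicates of a group it was 0.234 for *ime2Δ* at 6 h and 0.251 for WT at 4 h. Each *ime2Δ* 6 h array was nearer to both WT 2 h arrays than to either WT 4 h array, at 0.367 and 0.378 against 0.417 and 0.422 for replicate 1 and 0.314 and 0.277 against 0.411 and 0.365 for replicate 2, and the ranges overlap only between the replicates. The number of genes at least 2-fold apart did not overlap, at 448 to 779 to WT at 2 h and 912 to 1032 to WT at 4 h. Against WT at 2 h the test called 763 genes (12.2%), 323 higher (5.16%) and 440 lower (7.04%) in *ime2Δ* cells at 6 h, and it called 317 without *ime2Δ* 6 h replicate 1, 364 without WT 2 h replicate 1 and 357 without WT 2 h replicate 2. Comparing *ime2Δ* cells at 4 h with WT cells at 4 h gave 1950 calls (31.2%), 890 higher (14.2%) and 1060 lower (16.9%), and 972 without *ime2Δ* 4 h replicate 1. These comparisons share arrays with the one described here, so their counts stand side by side and were not tested against each other.

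**Figure D3:**
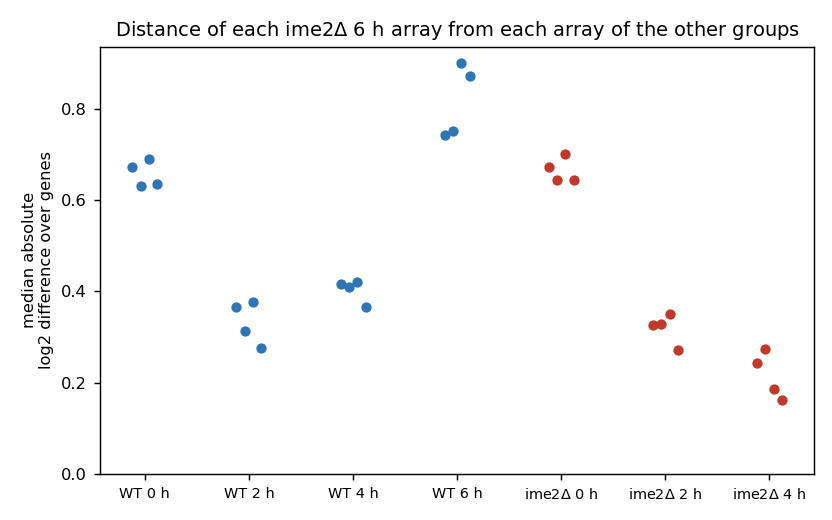
Median absolute log2 difference over all genes between each *ime2Δ* 6 h array and each array of the other groups, with 1 point for each pair of arrays. The nearest arrays are *ime2Δ* at 4 h (0.163 to 0.274), and for each *ime2Δ* 6 h array both WT 2 h arrays (0.277 to 0.378) are nearer than either WT 4 h array (0.365 to 0.422).

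Genes were next grouped by role, in 32 lists. A list is described by how many of its members passed the test, how many had an interval within 2-fold, and its median log2 difference, to be read against 24.2% called, 61% within 2-fold and a median of 0.00 over all genes. Over all genes, 63.5% of those that rose and 71.2% of those that fell in WT cells did so in *ime2Δ* cells. Members counted in this way were chosen by the WT change, so a smaller median in *ime2Δ* cells can follow from that choice.

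**Figure D4:**
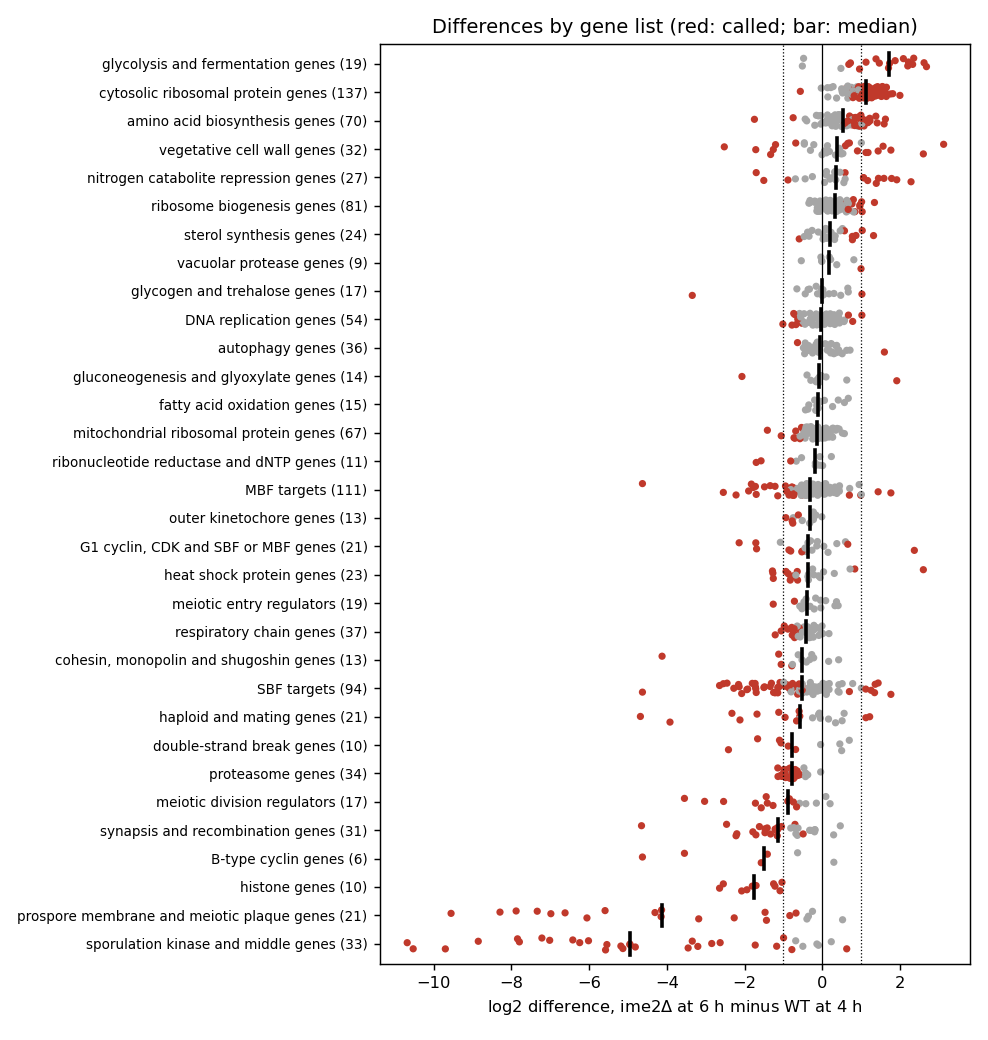
Log2 difference, *ime2Δ* 6 h minus WT 4 h, of every member of the 32 gene lists, with called genes in red and a bar at the median of each list. The middle genes (median -4.95) and prospore membrane genes (-4.14) extend farthest to the negative side, and the glycolysis (1.70) and ribosomal protein (1.12) genes lie on the positive side.

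Entry regulators stood near the WT 4 h level. Of 19 such genes, 2 were lower, none was higher and 15 were within 2-fold, with a median difference of -0.40, or -0.24 without WT 4 h replicate 2. All 10 entry regulators that rose in WT cells also rose in *ime2Δ* cells. *IME1*, the master activator of early genes, read 4.68 and 4.85 on the WT 4 h arrays and 5.16 and 5.10 on the *ime2Δ* 6 h arrays. Both mutant arrays were above both WT arrays, with a difference of 0.37 ± 0.22 SE that did not pass (adjusted p = 0.256, interval -0.11 to 0.84). *RIM4*, an RNA-binding regulator of meiotic messages, read 4.90 and 4.79 in WT and 4.47 and 4.36 in *ime2Δ* cells (adjusted p = 0.203), and *IME4*, which encodes the mRNA N6-adenosine methyltransferase, differed by -0.21, both within 2-fold. The entry regulator with the largest difference was *SLZ1*, which encodes a partner of that methyltransferase. Its levels were 4.78 and 4.65 in WT and 3.52 and 3.38 in *ime2Δ* cells, a difference of -1.26 ± 0.23 SE (adjusted p = 0.00168), although it had risen by 5.56 and 5.29 from 0 h. *UME6*, which encodes the DNA-binding protein that represses early genes in vegetative cells and works with Ime1 in meiosis, was lower, with a difference of -0.72 ± 0.23 SE (adjusted p = 0.0418), a call that was lost without WT 4 h replicate 1 or *ime2Δ* 6 h replicate 2 and under 75th percentile scaling, and leaving out either array left 1 lower gene in the list. *SUM1*, the repressor of middle genes, differed by -0.43 and was within 2-fold.

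Genes for making meiotic double-strand breaks rose in both strains but were lower in the mutant. Of the 10, 8 rose in WT cells, and all 8 also rose in *ime2Δ* cells, by a median of 4.53 and 3.77. At the end point, 6 were lower, none was higher and 2 were within 2-fold, with a median difference of -0.78. *SPO11*, which encodes the protein that cuts the DNA, read 1.02 and 1.90 in WT cells at 4 h and -1.46 and -0.45 in *ime2Δ* cells at 6 h. The groups did not overlap, and *SPO11* was lower, with a difference of -2.41 ± 0.43 SE (adjusted p = 0.00138), having risen by 6.31 in WT and 4.71 in *ime2Δ* cells. The test of the difference between its changes did not pass (adjusted p = 0.0965). *MEI4* and *REC114*, which encode subunits of one break-forming complex, were lower, with differences of -1.66 ± 0.20 SE and -1.10 ± 0.35 SE (adjusted p = 5.79e-05 and 0.0361). Single arrays mattered here, since *REC114* lost its call whichever of the 4 arrays was left out, and the list then had 3 lower genes, or 2 without *ime2Δ* 6 h replicate 2. Without WT 4 h replicate 2, 3 members were called higher.

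Synapsis and recombination genes included both members within 2-fold of the WT level and members well below it. Of 31 genes, 19 were lower, none was higher and 8 were within 2-fold, with a median difference of -1.15, and of the 28 that rose in WT cells 25 rose in *ime2Δ* cells. The lower set included genes of the synaptonemal complex and of crossover formation. *GMC2*, which encodes a synaptonemal complex protein, read 1.96 and 2.05 in WT and -2.39 and -2.90 in *ime2Δ* cells. The mutant was lower on both arrays, with a difference of -4.65 ± 0.28 SE (adjusted p = 5.75e-08), the lowest difference in the list. From 0 h *GMC2* rose by 7.41 in WT and 5.41 in *ime2Δ* cells, changes that differed (adjusted p = 0.00531). At 0 h *GMC2* was already lower in the mutant, with means of -8.06 against -5.41. *ZIP1*, which encodes the transverse filament of the complex, read 3.03 and 3.46 in WT and 1.73 and 1.81 in *ime2Δ* cells. It was lower, with a difference of -1.48 ± 0.26 SE (adjusted p = 0.00146). *ZIP2* and *SPO16*, which encode proteins that work together in crossover formation, were lower, with differences of -2.46 and -2.22, and so was *ECM11*, whose product acts with Gmc2, with one of -2.20. From 0 h *SPO16* rose by 5.93 in WT and 6.18 in *ime2Δ* cells, and *ECM11* by 7.46 and 7.31. Both were already lower in the mutant at 0 h, with means of -5.09 against -2.62 for *SPO16* and -6.70 against -4.65 for *ECM11*. *ZIP2* rose by 6.85 in WT and 4.87 in *ime2Δ* cells.

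Members of the synapsis and recombination list within 2-fold of the WT level included *HOP1* and *DMC1*. *HOP1*, which encodes an axis protein, read 3.13 and 3.74 in WT and 3.19 and 3.28 in *ime2Δ* cells, and its groups overlapped. The difference was -0.20 ± 0.33 SE, with an interval of -0.91 to 0.51. *DMC1*, the meiotic strand exchange recombinase, read 5.20 and 5.20 in WT and 5.17 and 4.85 in *ime2Δ* cells, a difference of -0.19 ± 0.24 SE with an interval of -0.71 to 0.32. Both had changed more in *ime2Δ* cells than in WT cells, since *HOP1* rose by 6.90 against 5.18 (adjusted p of the difference = 0.0277) and *DMC1* by 5.79 against 4.53 (adjusted p = 0.0267), starting from a lower level at 0 h (-0.77 and -0.79 in *ime2Δ* and 1.00 and 0.33 in WT cells for *DMC1*).

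Cohesin, monopolin and shugoshin genes were lower in part. Of 13 cohesin, monopolin and shugoshin genes, 4 were lower (30.8%, beside 14.1% of all genes) and none was higher. Within 2-fold were 6 (46.2%, beside 61%), and the median difference was -0.52. All 12 that rose in WT cells also rose in *ime2Δ* cells. *REC8*, the meiotic cohesin subunit, differed by -0.52 ± 0.27 SE with an interval of -1.11 to 0.06, so it was neither called nor bounded within 2-fold. *SMC1*, *IRR1* and *PDS5*, which encode subunits or partners of mitotic and meiotic cohesin, differed by -0.27, -0.22 and -0.41 and were within 2-fold. *MAM1*, which encodes the monopolin subunit that joins sister kinetochores in meiosis I, read 2.07 and 2.42 in WT and -1.71 and -2.04 in *ime2Δ* cells. Its groups lay far apart, with a difference of -4.12 ± 0.21 SE (adjusted p = 8.94e-09), after a rise of 4.12 in WT and 0.76 in *ime2Δ* cells. The monopolin gene *CSM1* was lower, with a difference of -1.12 (adjusted p = 2.82e-04), as was *MCD1*, the mitotic cohesin subunit gene, with one of -0.78 (adjusted p = 0.0461), a call that most alternatives lost. *SGO1*, the shugoshin gene, was lower, with a difference of -1.06 ± 0.25 SE (adjusted p = 0.00832) and lost its call without *ime2Δ* 6 h replicate 1, which left 2 lower genes in the list.

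The genes that drive the meiotic divisions were lower in *ime2Δ* cells. Of 17 division regulators, 12 were lower, none was higher and 4 were within 2-fold, with a median difference of -0.89, and of the 15 that rose in WT cells 8 rose, 2 fell and 5 did not pass in *ime2Δ* cells. *NDT80* read 2.21 and 2.58 in WT cells at 4 h and -0.37 and -0.90 in *ime2Δ* cells at 6 h. Both mutant arrays were below both WT arrays, an 8.16-fold lower level (log2 difference -3.03 ± 0.28 SE, adjusted p = 5.03e-06). It rose by 3.88 from 0 to 4 h in WT and by 0.71 from 0 to 6 h in *ime2Δ* cells, changes that differed (adjusted p = 1.95e-04). *CDC5*, the Polo kinase needed to leave pachytene, read 1.00 and 1.74 in WT and -1.28 and -1.07 in *ime2Δ* cells, a difference of -2.54 ± 0.26 SE (adjusted p = 1.26e-05). *PDS1*, the securin gene, was lower, with a difference of -1.72. *AMA1*, which encodes the meiotic activator of the anaphase-promoting complex, was lower, with a difference of -1.27 ± 0.39 SE (adjusted p = 0.0317). *AMA1* lost its call without *ime2Δ* 6 h replicate 1, *ime2Δ* 6 h replicate 2 or WT 4 h replicate 2. It rose by 3.93 in WT and 4.69 in *ime2Δ* cells, and the test of the difference between these changes did not pass (adjusted p = 0.386). At 0 h *AMA1* was already lower in the mutant, with means of -2.86 against -0.84. *MND2*, which encodes an inhibitor of Ama1 action, and *BIR1*, a chromosome passenger gene, differed by -0.15 and 0.09 and were within 2-fold.

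Among the B-type cyclin genes, whose products drive S phase and the divisions, 4 of 6 were lower and none was higher (median -1.49), and 5 of the 6 changed more negatively in *ime2Δ* than in WT cells. *CLB1*, a cyclin of the meiotic divisions, read 0.37 and 0.43 in WT and -2.97 and -3.33 in *ime2Δ* cells. It was lower, with a difference of -3.55 ± 0.25 SE (adjusted p = 3e-07), and it rose in WT cells (log2 change 2.19) and fell in *ime2Δ* cells (-2.91). Of the S-phase cyclin genes, one was called and the other was not. *CLB6* read -0.16 and -0.25 in WT and -4.84 and -4.83 in *ime2Δ* cells, lower, with a difference of -4.63 ± 0.32 SE (adjusted p = 2.8e-07). *CLB5* read 2.04 and 2.02 in WT and 1.43 and 1.37 in *ime2Δ* cells, with a difference of -0.64 ± 0.38 SE that did not pass (adjusted p = 0.257). The difference between these cyclins in their response was not tested. *CLB3* and *CLB4* were lower, with differences of -1.41 and -1.57.

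Middle genes had the lowest median difference of the 32 lists. Of 33 sporulation kinase and middle genes, 27 were lower, 1 was higher and 4 were within 2-fold, with a median difference of -4.95 (-4.63 within replicate 1 and -5.25 within replicate 2). The median log2 level of the list was 2.02 and 2.17 on the WT 4 h arrays and -2.63 and -2.94 on the *ime2Δ* 6 h arrays. Of the 29 that rose in WT cells, 13 rose, 8 fell and 8 did not pass in *ime2Δ* cells, with median changes of 3.56 and 0.57. *SPS2*, which encodes a spore wall protein, read 3.44 and 3.88 in WT and -7.09 and -6.96 in *ime2Δ* cells, and was lower, with a difference of -10.68 ± 0.21 SE (adjusted p = 1.64e-12), the lowest difference of any gene tested. *SPS4*, a middle gene, read 4.62 and 4.91 in WT and -6.01 and -5.52 in *ime2Δ* cells, lower, with a difference of -10.53 ± 0.25 SE (adjusted p = 7.47e-12). *SMK1*, the MAP kinase gene of spore wall assembly, read 1.05 and 1.32 in WT and -8.63 and -8.40 in *ime2Δ* cells, lower, with a difference of -9.70 ± 0.17 SE (adjusted p = 9.22e-13). The WT and *ime2Δ* arrays of these genes did not overlap. *SPS1*, which encodes a kinase of spore formation, was lower, with a difference of -6.42 ± 0.25 SE, and so was *LDS2*, a spore wall gene, with one of -8.85. The mid-late gene *DIT1*, which acts in making the dityrosine layer of the spore wall, read -0.67 and -0.58 in WT and -1.65 and -1.59 in *ime2Δ* cells and was lower (adjusted p = 0.00175).

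Prospore membrane and meiotic plaque genes showed the same order of difference. Of 21, 17 were lower, none was higher and 3 were within 2-fold, with a median of -4.14, and the median level of the list was 0.96 and 0.83 in WT and -2.87 and -3.22 in *ime2Δ* cells. Where neither array of the mutant had a probe well above background, only a bound could be given, from the WT mean and the lowest signal well above background on the *ime2Δ* arrays (or the probe's own signal, if higher). *SMA2*, needed for prospore membrane assembly, read -0.69 and -0.69 in WT and -10.26 and -10.23 in *ime2Δ* cells, at least 417-fold lower (adjusted p = 2.54e-11). *SPO77*, which acts in prospore membrane closure, was at least 269-fold lower (adjusted p = 6.98e-11), with levels of -1.33 and -1.23 against -10.02 and -9.14. *SPO19* and *SMA1*, whose products act at the prospore membrane, were lower, with differences of -7.88 and -7.34. Members within 2-fold of the WT level were *MPC54*, which encodes a meiotic plaque component, with a difference of -0.40 after changes of 2.82 in WT and 3.01 in *ime2Δ* cells, and *SPO71* and *SPO73*, with -0.36 and -0.25. Among the middle list, *RRT8*, *SPG4* and *SPS19* were within 2-fold (-0.50, -0.10 and -0.14).

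The 10 lowest genes with a name held, beside those already given, *SRD1*, *PFS1*, *GAT4* and *SPR2*. *SRD1* read -1.03 and -1.64 in WT and -11.08 and -11.54 in *ime2Δ* cells, at least 267-fold lower (adjusted p = 1.93e-10). *GAT4* encodes a GATA-type protein and *PFS1* a protein of prospore formation, and their differences were -8.56 and -8.88, while that of *SPR2* was -8.55.

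Many middle genes already read lower in *ime2Δ* cells at 0 h. In *ime2Δ* cells at 0 h, 20 of the 33 middle genes were lower than in WT cells at 0 h by at least 2-fold, with a median of -1.60, as were 8 of the 21 prospore genes (median -0.66) and 14 of the 31 synapsis genes (median -0.48). Over all genes the median was -0.01, and 179 of 6254 were lower by at least 2-fold. *SPS2* read -0.33 and -0.08 in WT and -6.50 and -6.10 in *ime2Δ* cells at 0 h, and *SPS4* read 1.51 and 2.02 in WT and -4.22 and -4.62 in *ime2Δ* cells. The test of the changes, which takes out the 0 h level, gave 23 middle genes and 14 prospore genes with a more negative change in *ime2Δ* cells and none with a more positive one, with list medians of -2.70 and -2.12. Of the 31 synapsis genes, 7 had a more negative and 4 a more positive change, with a median of -0.15. Over all genes the shares were 8.41% and 5.15%. By this measure *SPS2* differed by -4.58 and *SPS4* by -4.34. The part that the starting cultures had in the end-point values was not tested further.

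**Figure D5:**
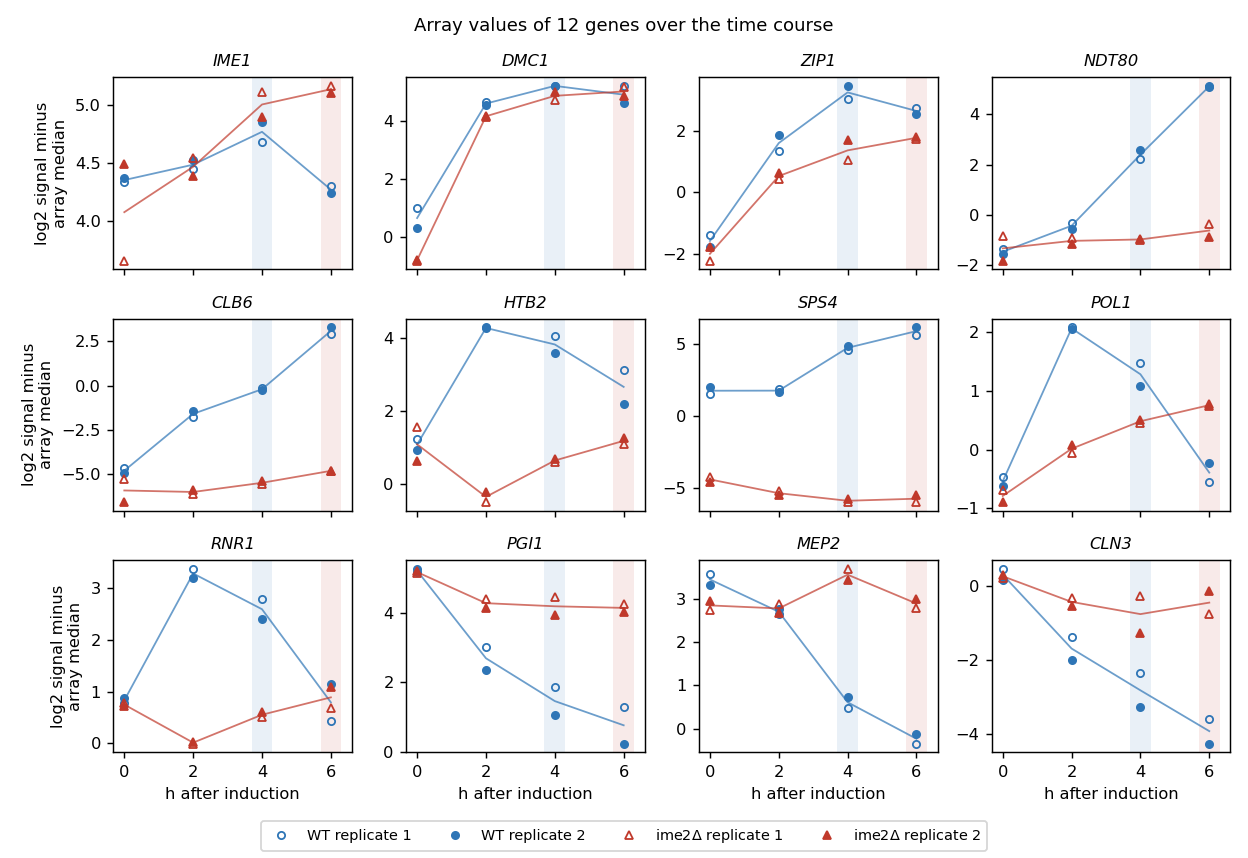
Log2 level of 12 genes on each of the 16 arrays, against hours in sporulation medium, for WT and *ime2Δ* cells, with the WT 4 h and *ime2Δ* 6 h arrays shaded. *DMC1* reached the WT 4 h level in *ime2Δ* cells (5.17 and 4.85 against 5.20 and 5.20), *NDT80* and *HTB2* stayed below it, and *PGI1* and *MEP2* stayed above it.

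Most replication genes, like most genes, were within 2-fold of the WT 4 h level. Of 54, 39 (72.2%) were within 2-fold, 7 (13%) were lower and 3 (5.56%) higher, with a median difference of -0.04. Over all genes these shares were 61%, 14.1% and 10.1%. The median level of the list in WT cells was highest at 2 h, at -0.88, 0.13, -0.31 and -0.56 from 0 to 6 h. It was -0.29 in *ime2Δ* cells at 6 h. Against WT cells at 2 h, 15 of the 54 were lower and none higher, with a median difference of -0.35. Of the 30 that rose in WT cells, 27 rose in *ime2Δ* cells, with medians of 1.15 and 1.17. *POL1*, which encodes the catalytic subunit of DNA polymerase α, read 1.48 and 1.09 in WT and 0.77 and 0.74 in *ime2Δ* cells. Its groups did not overlap, and it was lower, with a difference of -0.53 ± 0.17 SE (adjusted p = 0.0442), a difference that was both called and within 2-fold and that lost its call without WT 4 h replicate 1 or either *ime2Δ* 6 h array and under 75th percentile scaling. *POL2*, the leading-strand polymerase gene, *RFA3*, a subunit gene of the single-strand binding complex RPA, and *CSM3*, a fork protection gene, differed by -0.14, 0.10 and -0.56, all within 2-fold. *RFA2*, another RPA gene, was lower, with a difference of -0.78, and so was *ORC3*, an origin recognition gene, with one of -1.01, whereas *MCM7* and *MCM3*, which encode subunits of the replicative helicase, were higher by 1.02 and 0.78. Leaving out 1 array gave 2 lower genes (without *ime2Δ* 6 h replicate 1) to 4, and 2 to 4 higher ones.

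Among 11 genes for nucleotide supply, the share called was near that of all genes (27.3% beside 24.2%). *RNR1*, the large subunit gene of ribonucleotide reductase, read 2.79 and 2.39 in WT and 0.69 and 1.09 in *ime2Δ* cells, lower, with a difference of -1.70 ± 0.23 SE (adjusted p = 1.53e-04). *DIF1*, which encodes a regulator of where the small subunit resides, was lower, with a difference of -1.58, and so was *DUN1*, a checkpoint kinase gene of the same pathway, with one of -0.81. These were the 3 lower genes of 11 in the list (27.3%, beside 14.1% of all genes), and none was higher. Another 7 (63.6%, beside 61%) were within 2-fold. The small subunit genes *RNR2* and *RNR4* differed by 0.23 and -0.18 and fell in both strains. *CDC21*, the thymidylate synthase gene, differed by -0.53 and was within 2-fold.

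All 10 histone genes were lower in *ime2Δ* cells, none was within 2-fold, and the count stayed at 10 with any of the 4 arrays left out. The median level of the list was 4.87 and 4.71 in WT and 2.81 and 2.52 in *ime2Δ* cells, with no overlap, and the median difference was -1.75. All 10 rose in WT cells from 0 to 4 h, by a median of 1.54, while in *ime2Δ* cells from 0 to 6 h 1 rose, 6 fell and 3 did not pass (median -0.51). *HTB2*, an H2B gene, read 4.06 and 3.60 in WT and 1.12 and 1.27 in *ime2Δ* cells, lower, with a difference of -2.64 ± 0.32 SE (adjusted p = 6.87e-05). *HHF2*, an H4 gene, read 5.18 and 4.66 in WT and 2.47 and 2.28 in *ime2Δ* cells, lower, with a difference of -2.55 ± 0.20 SE. *HTZ1*, the H2A.Z variant gene, chosen after its values were seen, was the one histone gene that rose in *ime2Δ* cells, by 0.87 against 2.66 in WT. The paired copies of each core histone gene are nearly identical, so that signal may be shared between their probes and the members are not independent.

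Among targets of the G1/S factors, lower genes outnumbered higher ones. The targets of SBF and of MBF were taken from lists built on the mitotic cycle, not on these samples. Of 94 SBF targets 40 were lower, 7 higher and 37 within 2-fold, with a median difference of -0.53. Of 111 MBF targets 31 were lower, 4 higher and 60 within 2-fold, with a median of -0.32, and the 31 became 18 without WT 4 h replicate 1. The lists share 36 genes, of which 12 were lower and 3 higher. Of the targets outside the shared set, 28 of 58 SBF targets and 19 of 75 MBF targets were lower, beside 14.1% of all genes. Against WT cells at 2 h, 55 of the 94 SBF targets were lower and 2 higher in *ime2Δ* cells at 6 h. Of the 111 MBF targets, 52 were lower and 1 higher. These stand beside 7.04% lower and 5.16% higher over all genes. Of the 44 SBF targets that rose in WT cells 17 rose, 8 fell and 19 did not pass in *ime2Δ* cells (medians 1.55 and 0.27), and of the 70 MBF targets that rose 55 rose, 2 fell and 13 did not pass (medians 1.66 and 1.15). Histone, cyclin and synapsis genes already described are among these targets. *BBP1*, which encodes a spindle pole body component, was lower, with a difference of -2.45, and so was *BNR1*, a formin gene, with one of -1.90. *PSA1*, which encodes the enzyme that makes GDP-mannose, and *GAS1*, a cell wall glucan-remodelling gene, differed by 0.10 and 0.43 and were within 2-fold.

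Among 21 genes for G1 cyclins, the Cdk and SBF or MBF themselves, 7 were lower, 2 were higher and 11 within 2-fold, with a median of -0.37, and the lower genes were 4 without WT 4 h replicate 1, WT 4 h replicate 2 or *ime2Δ* 6 h replicate 1. *NRM1*, which encodes a corepressor of MBF, read -0.16 and -0.60 in WT and -2.71 and -2.33 in *ime2Δ* cells, lower, with a difference of -2.14 ± 0.30 SE (adjusted p = 2.81e-04). *CLN3*, the G1 cyclin gene that starts the mitotic G1/S program, went the other way, with -2.35 and -3.27 in WT and -0.75 and -0.13 in *ime2Δ* cells, higher by 2.37 ± 0.38 SE (adjusted p = 6.99e-04). *WHI5*, the repressor of SBF, and *FAR1*, a Cdk inhibitor gene, were lower, with differences of -1.71 and -1.69. *CLN1*, a G1 cyclin gene, and *SIC1*, which encodes the inhibitor of S-phase Cdk, differed by 0.04 and 0.37 and were within 2-fold, and *SWI4*, the DNA-binding subunit of SBF, differed by -0.44 without passing the test (adjusted p = 0.285, interval -1.05 to 0.17).

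Genes for ribosomal proteins and glycolysis were higher in *ime2Δ* cells at 6 h than in WT cells at 4 h. Of 137 cytosolic ribosomal protein genes 113 were higher, 1 lower and 6 within 2-fold, with a median difference of 1.12 (0.61 within replicate 1 and 1.60 within replicate 2). The median level of the list was 1.77 and 0.96 on the WT 4 h arrays and 2.28 and 2.53 on the *ime2Δ* 6 h arrays, so that the groups did not overlap but WT replicate 1 lay nearer to the mutant. Without WT 4 h replicate 2 the list had 34 higher genes and a median of 0.69, without *ime2Δ* 6 h replicate 2 it had 46, and without WT 4 h replicate 1 it had 121. In WT cells 134 of these genes fell from 0 to 4 h, and of them 103 fell and 31 did not pass in *ime2Δ* cells, with medians of -2.12 and -0.97. *RPS12* read 1.52 and 1.31 in WT and 3.11 and 3.23 in *ime2Δ* cells, and *RPL34B* was higher by 2.00 ± 0.40 SE. *RPL15B* was the lower gene, with a difference of -0.56. Many of these genes are paired copies, and their signals may be shared. Of 81 ribosome biogenesis genes, which act in making the subunits, 10 were higher, none was lower and 49 were within 2-fold. The median was 0.32, with -0.04 within replicate 1 and 0.70 within replicate 2, and it was 0.04 without *ime2Δ* 6 h replicate 2 and 0.67 without *ime2Δ* 6 h replicate 1. The higher genes were 4 without *ime2Δ* 6 h replicate 2, 6 without WT 4 h replicate 2 and 18 without *ime2Δ* 6 h replicate 1. *UTP22*, *RRP6* and *UTP21* were higher by 1.34, 1.03 and 1.01, while *NOP1*, the fibrillarin gene, differed by 0.21, within 2-fold.

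Of 19 glycolysis and fermentation genes 16 were higher, none was lower and 1 was within 2-fold, with a median of 1.70 (1.37 within replicate 1 and 1.99 within replicate 2). The list had a median level of 2.42 and 1.75 in WT cells at 4 h and 4.18 and 3.84 in *ime2Δ* cells at 6 h. Of the 17 that fell in WT cells 13 fell and 4 did not pass in *ime2Δ* cells, with medians of -2.74 and -1.10. *PGI1*, the phosphoglucose isomerase gene, read 1.86 and 1.05 in WT and 4.25 and 4.03 in *ime2Δ* cells, higher by 2.68 ± 0.35 SE (adjusted p = 1.21e-04). The genes of phosphoglycerate mutase (*GPM1*), pyruvate kinase (*CDC19*) and enolase (*ENO1*) were higher by 2.62, 2.35 and 2.33. These 4 were among the 10 highest named genes.

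Most proteasome genes and some respiratory genes were lower in *ime2Δ* cells. Of 34 proteasome genes 28 were lower, none was higher and 7 were within 2-fold, with a median of -0.79, and 18 were lower without WT 4 h replicate 2. The median level was 3.29 and 3.69 in WT and 2.74 and 2.76 in *ime2Δ* cells. Of the 32 that rose in WT cells, by a median of 1.19, 15 rose and 17 did not pass in *ime2Δ* cells (median 0.43). *PRE1*, which encodes a core subunit, read 3.39 and 3.59 in WT and 2.36 and 2.34 in *ime2Δ* cells, lower, with a difference of -1.14 ± 0.17 SE (adjusted p = 3.60e-04). *RPN11*, the deubiquitinase gene of the lid, was lower, with a difference of -1.04, and *PRE2*, a catalytic core gene, differed by -0.43, within 2-fold.

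Of 37 respiratory chain genes 12 were lower, none was higher and 22 were within 2-fold (median -0.41). Of the 33 that rose in WT cells, 14 rose and 19 did not pass in *ime2Δ* cells (medians 1.35 and 0.37). The 12 calls were 2 without WT 4 h replicate 2, 3 without WT 4 h replicate 1 or *ime2Δ* 6 h replicate 1, and 6 without *ime2Δ* 6 h replicate 2. *CYC1*, a cytochrome c gene, and *QCR6*, a subunit gene of complex III, were lower, with differences of -1.21 and -1.06, and *SDH3* and *SDH4*, of succinate dehydrogenase, differed by 0.01 and -0.48, within 2-fold. Of 67 mitochondrial ribosomal protein genes 57 were within 2-fold and 8 lower (median -0.12), with 2 lower without *ime2Δ* 6 h replicate 1, 3 without WT 4 h replicate 1 and 4 without *ime2Δ* 6 h replicate 2. Of 13 outer kinetochore genes 4 were lower and 7 within 2-fold (median -0.33). *NDC80* was lower, with a difference of -0.94, after rises from 0 h of 2.15 in WT and 0.92 in *ime2Δ* cells. *DUO1* and *DAD2*, of the Dam1 complex, differed by -0.01 and -0.21. The lower genes of this list were 1 without WT 4 h replicate 1 and 2 without either *ime2Δ* 6 h array.

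Most genes of starvation metabolism were within 2-fold of the WT 4 h level, as were 61% of all genes, though not all of these lists had risen from 0 h. Of 36 autophagy genes 31 were within 2-fold, 1 was higher and 1 lower, with a median of -0.06, and of the 25 that rose in WT cells 22 rose in *ime2Δ* cells (medians 1.43 and 1.49). *ATG45*, *ATG40*, which encodes a receptor for degrading the endoplasmic reticulum, and *ATG33*, which acts in degrading mitochondria, differed by -0.49, -0.45 and -0.44. *ATG41* was higher by 1.60, a call that rested on 0.14 and 0.26 in WT against 1.54 and 2.06 in *ime2Δ* cells. Of 15 fatty acid oxidation genes 13 were within 2-fold and none was called (median -0.10). Of the 10 that rose in WT cells 8 rose in *ime2Δ* cells (medians 1.51 and 1.59). *FOX2*, which encodes the multifunctional enzyme of the pathway, read 4.17 and 4.46 in WT and 4.27 and 4.02 in *ime2Δ* cells. Of 14 gluconeogenesis and glyoxylate genes 2 rose and 5 fell from 0 to 4 h in WT cells. Of the 14, 11 were within 2-fold at the end point (median -0.08), *FBP1*, the fructose-1,6-bisphosphatase gene, among them (-0.09). Exceptions were *PCK1*, which encodes the enzyme that commits carbon to gluconeogenesis, at 4.74 and 4.80 in WT and 2.13 and 3.28 in *ime2Δ* cells (difference -2.07), and *DAL7*, a malate synthase gene of allantoin use, which was higher by 1.92. Of 17 glycogen and trehalose genes 12 were within 2-fold and the median was 0.00. Of the 7 that rose in WT cells 3 rose in *ime2Δ* cells (medians 1.22 and 0.29), beside 63.5% over all genes (medians 1.18 and 0.76). The change from 0 h was more negative in the mutant for 3 members and more positive for none (list median -0.61). *SGA1*, the sporulation-specific glucoamylase gene, was lower, with a difference of -3.35 ± 0.28 SE, with 2.17 and 1.69 in WT and -1.05 and -1.78 in *ime2Δ* cells, and *GLG2*, which encodes a glycogen primer protein, differed by -0.33 after rises of 3.51 and 2.92. The medians of these 4 lists were close to 0 and changed sign under some alternatives, as did those of the replication and vacuolar protease lists. Of 9 vacuolar protease genes 7 were within 2-fold and 1, *DAP2*, was higher.

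Genes for nitrogen sources and amino acids were higher in part. Of 27 genes under nitrogen catabolite repression, which serve the use of poor nitrogen sources, 10 were higher, 3 lower and 12 within 2-fold, with a median of 0.35. *MEP2*, the ammonium permease and sensor gene, read 0.48 and 0.74 in WT and 2.78 and 3.01 in *ime2Δ* cells, higher by 2.28 ± 0.18 SE (adjusted p = 9.94e-07). It fell from 0 to 4 h in WT cells (log2 change -2.84), and its change of 0.04 from 0 to 6 h in *ime2Δ* cells did not pass. *DUR12*, the urea amidolyase gene, was higher by 1.78 and *DAL1*, the allantoinase gene, lower, with a difference of -1.70, while *PUT1* and *CAR2*, of proline and arginine use, differed by 0.20 and 0.11, within 2-fold. Of 70 amino acid biosynthesis genes 29 were higher, 2 lower and 31 within 2-fold (median 0.52), and the higher genes were 11 to 15 with any 1 of the 4 arrays left out. *MET17* and *HOM3*, of methionine and threonine synthesis, were higher by 1.63 and 1.59 and *ARO9*, an aromatic aminotransferase gene, was lower, with a difference of -1.75. *HIS4*, mutated in both strains, was higher by 1.41 and lost its call without WT 4 h replicate 2.

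Cell wall, sterol and heat shock genes were mixed. Of 32 vegetative cell wall genes 11 were higher, 6 lower and 9 within 2-fold. The median was 0.39, and it was 0.15 without WT 4 h replicate 2 and 0.19 without *ime2Δ* 6 h replicate 1. *PIR1*, which encodes a wall glycoprotein, read -0.66 and -1.16 in WT and 2.17 and 2.25 in *ime2Δ* cells, higher by 3.12 ± 0.27 SE (adjusted p = 2.51e-06), and *HSP150*, of the same family, was higher by 2.60. *CWP1*, a mannoprotein gene, was lower, with a difference of -2.52. Of 24 sterol synthesis genes 6 were higher, 1 lower and 18 within 2-fold (median 0.19), with *ERG1*, the squalene epoxidase gene, higher by 1.32 and *ERG9*, the squalene synthase gene, within 2-fold (0.33), and the higher genes were 1 or 2 without *ime2Δ* 6 h replicate 1, *ime2Δ* 6 h replicate 2 or WT 4 h replicate 2. Of 23 heat shock genes 10 were lower, 2 higher and 9 within 2-fold, with a median of -0.37, or -0.58 without WT 4 h replicate 1. *HSP42*, a small heat shock protein gene, read 3.26 and 3.39 in WT and 2.26 and 1.83 in *ime2Δ* cells, and *SIS1*, which encodes a J-domain chaperone, was lower, with a difference of -1.26. The lower genes were 5 without WT 4 h replicate 2 and 4 without *ime2Δ* 6 h replicate 2.

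Haploid and mating genes, read as markers of cells other than MATa/α diploids, were lower in part in *ime2Δ* cells. Of 21, 10 were lower, 2 higher and 8 within 2-fold, with a median of -0.58, which was -0.16 without WT 4 h replicate 1 and, with 7 lower and 4 higher genes, -0.23 under quantile normalization. The median level of the list was -1.54 and -1.72 in WT cells at 4 h and -2.48 and -2.72 in *ime2Δ* cells at 6 h, without overlap. From 0 to 4 h in WT cells 12 of the 21 rose and 1 fell (median change 0.86). From 0 to 6 h in *ime2Δ* cells 11 rose and 2 fell (0.75). The list thus also changed during sporulation, and its level cannot be read as a share of other cells. *FIG1*, a gene of mating cell fusion, read -1.64 and -0.85 in WT and -5.91 and -5.94 in *ime2Δ* cells, lower, with a difference of -4.68 ± 0.22 SE (adjusted p = 4.79e-09), after rising by 4.50 in WT cells. *STE18*, the G protein γ subunit gene, and *STE3*, the a-factor receptor gene, were lower, with differences of -3.92 and -2.32, while *MFA1*, an a-factor gene, *SAG1*, the α-agglutinin gene, and *FUS3*, the mating MAP kinase gene, rose in both strains and were within 2-fold (-0.25, -0.07 and -0.10). The lower genes were 5 without WT 4 h replicate 2 or *ime2Δ* 6 h replicate 2 and 6 without WT 4 h replicate 1. Whether cells of another mating type took part in any result was not tested.

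The highest gene with a name was *PET122*, which encodes a translational activator of a mitochondrial message, with -0.23 and 0.54 in WT and 3.41 and 3.26 in *ime2Δ* cells, higher by 3.18 ± 0.37 SE (adjusted p = 4.37e-05). *ZRT1*, the high-affinity zinc transporter gene, read 0.36 and 1.32 in WT and 3.67 and 3.53 in *ime2Δ* cells, higher by 2.75 ± 0.32 SE (adjusted p = 5.34e-05), and *MMP1*, the S-methylmethionine permease gene, was higher by 2.53. *PET122* fell in WT cells from 0 to 4 h, with a log2 change of -3.01, and its change of -0.19 from 0 to 6 h in *ime2Δ* cells did not pass. The 10 highest and the 10 lowest named genes had no overlap between the groups, which was part of how they were picked.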

How the data were processed

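Total RNA from aliquots of sporulating WT and *ime2Δ* cultures was amplified, labelled with one dye and hybridised to single-colour Agilent arrays with 1 probe per gene in 2 spots. The deposited scanner tables held processed signal intensity per spot from Agilent Feature Extraction 10.7.1.1, and a second table that the authors deposited held log2 values of the same arrays, which matched log2 intensity minus the array median with a median absolute difference of 7.75e-07 and served as an alternative. Here spots carrying an outlier mark (0 to 13 per array) were left out, the log2 processed signals of a probe's spots were averaged and the array median was subtracted. A gene counted as well above background on an array only where both spots did, and no spot was saturated. Precision is limited by 2 arrays per group.

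All 16 arrays were fitted as 8 groups (R 4.3.3, limma 3.58.1) by lmFit and eBayes, with 8 residual and 4.58 prior degrees of freedom, and p-values were adjusted by Benjamini-Hochberg over 6254 genes and called under 0.05. Other tables were made with Python 3.11.15, and the fitting steps were tested on simulated data. Of the systematic names, 5756 matched the RefSeq annotation and 5234 had a symbol. Tried as alternatives were quantile normalization, a 75th percentile scaling, the authors' table, normexp correction of the background (offset 50, on median signals in place of the planned mean signals), all spots, the replicate as a block, a robust intensity trend, the compared groups alone, genes well above background, a minimum change and leaving out each array.

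Same-numbered arrays of different groups deviated from their group means with correlations of 0.0754 to 0.535 (median 0.22) over 28 pairs of groups. All were positive, but not every pair passed 0.1, and the main fit had no block. With a block, 1888 genes were called in place of 1515. For the difference between the changes it was 1244 in place of 848. Named genes were 30 key regulators, the 10 highest and 10 lowest called genes whose arrays did not overlap, and from each list up to 4 called genes and up to 3 that changed in WT and lay within 2-fold. The members, lists and named genes were chosen with earlier results of these data known.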

Additional observations from a re-analysis of the deposited data

Results flagged for a closer look

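For 848 genes the 0 to 6 h change of *ime2Δ* cells differed from the 0 to 4 h change of WT cells, by an interaction term in limma at an adjusted p under 0.05. The spans compared differ in length as well as in strain, and the count fell to 457 without *ime2Δ* 0 h replicate 1, to 543 without WT 0 h replicate 1 and to 510 without WT 0 h replicate 2. These were 13.6% of all genes tested. Of 48 key, highest and lowest genes looked at, 32 are given below, but the 10 highest and 10 lowest were picked by the difference between *ime2Δ* at 6 h and WT at 4 h, which is part of this term, so their direction here follows largely from the choice. Values below are the log2 change in *ime2Δ* cells minus that in WT cells.

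Among spore formation genes the difference was -7.40 for *SPO77*, -7.25 for *LDS2*, -6.97 for *SMA2*, -6.48 for *SMK1*, -4.58 for *SPS2*, -4.34 for *SPS4* and -2.70 for *SPS1*. It was -4.68 for *SRD1*, -4.36 for *PFS1*, -3.24 for *GAT4* and -2.95 for *SPR2*. For *SPO77*, *SMA2* and *SRD1* neither *ime2Δ* 6 h array was well above background, so the sizes of these differences are not exact. The regulators and cyclins of the divisions gave -3.16 for *NDT80*, -3.05 for *CDC5*, -5.10 for *CLB1* and -1.29 for *CLB3*. S-phase and G1/S genes gave -3.51 for *CLB6*, -2.88 for *NRM1*, -2.65 for *HTB2*, -1.62 for *RNR1* and -1.24 for *CLN1*. *CLN1* ended at -2.14 and -2.03 in *ime2Δ* cells at 6 h against -2.05 and -2.20 in WT cells at 4 h, and the gap between its changes lay in the 0 h levels, -0.50 and -1.04 against -2.00 and -2.10.

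More positive changes in *ime2Δ* cells were seen for *HOP1* (1.72) and *DMC1* (1.25), which also ended within 2-fold of the WT 4 h level. Glycolysis genes gave 2.72 for *PGI1*, 2.31 for *CDC19*, 2.00 for *GPM1* and 1.83 for *ENO1*. Cell wall genes gave 2.58 for *HSP150* and 1.96 for *PIR1*. *PET122* gave 2.82, *ZRT1* 2.59, *CLN3* 2.41 and *MMP1* 1.96.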

How the results depend on the processing

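No called named gene reversed its direction under any alternative. The medians of the replication, autophagy, fatty acid oxidation, gluconeogenesis, glycogen and trehalose, and vacuolar protease lists changed sign under some. The balance of calls also turned, from 632 higher and 883 lower to 964 and 831 under quantile normalization and, for the changes in *ime2Δ* and WT cells, from 1535 and 1884 to 2140 and 1305 and from 1919 and 1987 to 2309 and 1649 under 75th percentile scaling. Requiring a 2-fold difference left 766 genes between *ime2Δ* at 6 h and WT at 4 h, 2491 for the change in WT cells, 1877 for the change in *ime2Δ* cells, 381 against WT at 2 h and 981 for both strains at 4 h, by construction. Fitting only the groups compared, which leaves fewer arrays for the spread, gave 885 and, against WT at 2 h, 426. A 1.5-fold limit bounded 1212 genes. For genes that rose in one WT replicate, the median difference in the other replicate was -0.51, and it was -0.71 and -1.10 when the genes were chosen at log2 limits of 1.5 and 2, -0.40 under 75th percentile scaling and -0.46 under quantile normalization. For genes that fell it was 0.41, and 0.62 at a limit of 2. The cause of these shifts was not tested. Other alternatives, the authors' table and normexp among them, stayed within 1.5 times each count.

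Leaving out 1 array gave 1011 to 1162 genes between *ime2Δ* at 6 h and WT at 4 h, 3353 to 3551 for the change in WT, 2723 to 2922 for the change in *ime2Δ* cells, 457 to 791 whose changes differed, 317 to 670 against WT at 2 h, 972 to 1690 for both strains at 4 h and 3117 to 3237 within 2-fold. With the replicate as a block, 1888 genes differed between *ime2Δ* at 6 h and WT at 4 h, and the counts elsewhere stayed within 1.5 times. Of 2828 values of named genes under alternatives, 152 lost and 11 gained a call. With 2 arrays per group, 1071 genes could be neither called nor bounded within 2-fold.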
